A study of Mus musculus with 24 samples.

Results

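The transcripts described here encode 5 enzymes that make or break down glycogen and 4 subunits that bring protein phosphatase 1 to the glycogen particle, measured in mouse heart over a single day. Members were the genes Ppp1r3a, Ppp1r3b, Ppp1r3c, Ppp1r3d, Gys1, Gyg, Pygm, Pygb and Gbe1. They were found as every probe set whose only gene symbol in the platform annotation is one of these names. All 9 genes were measured, by 10 of 34351 probe sets, and they were 9 of 22180 genes with a symbol of their own. Ppp1r3b had 2 probe sets and each of the other 8 genes had 1.

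Every animal was a male wild-type C57Bl/6 mouse, and hearts were taken at 8 weeks of age under 12 h of light and 12 h of dark. The 6 groups differed only in zeitgeber time (ZT, hours after lights-on): ZT03, ZT07 and ZT11 in the light, when mice mostly rest, and ZT15, ZT19 and ZT23 in the dark, when they are mostly active. Each time had 4 arrays, called biological replicates in the labels, which makes 24 in all. The labels name no pooling, feeding schedule or batch, and any batch that holds all arrays of a time cannot be told apart from it. Each value is a log2 difference from the gene's own median over the 24 arrays, and base 2 is assumed because the base is not stated. No level is kept, so 1 gene cannot be set against another in abundance, and whether the myocardium label fits the presence of heart genes could not be checked.

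Glycogen is a store of glucose that heart muscle keeps as branched chains around a core protein. Glycogenin starts the chain, glycogen synthase lengthens it, the branching enzyme adds branches, and glycogen phosphorylase releases glucose phosphate from the ends. Phosphorylation switches synthase off and phosphorylase on. Protein phosphatase 1 reverses both, and its targeting subunits place it on glycogen, so that their amount can set how far synthase is activated.

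Of the 4 targeting subunits, 3 had a 24-h rhythm with a peak in the dark, and of the 5 enzymes 1 had a rhythm, with its peak late in the light. The subunits were Ppp1r3a (1.43-fold from trough to peak), Ppp1r3b (1.60-fold) and Ppp1r3c (1.80-fold), and the enzyme was Pygb, a glycogen phosphorylase (1.23-fold). Ppp1r3d and the enzymes Gys1, Gyg, Pygm and Gbe1 were not called, with fitted changes of 1.03 to 1.11-fold. A rhythm was called in limma's moderated test of a cosine and a sine term at a Benjamini-Hochberg adjusted p below 0.05 over all 22180 genes. In that test 7.61% of all genes were called, 3.78% with a peak in the dark and 3.83% with a peak in the light, against 4 of 9 members. The median fitted change was 1.52-fold over these 4 targeting subunits, 1.08-fold over the enzymes and 1.06-fold over all genes. Over all 7 targeting subunits, with Ppp1r3e, Ppp1r3f and Ppp1r3g added, it was 1.11-fold. The members were chosen with results of these data known, so their count is a description. The times cover 1 cycle, and its return was not measured. The p-values set the change over time against the spread of these 24 samples around the fit, moderated over all genes.

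**Figure D1:**
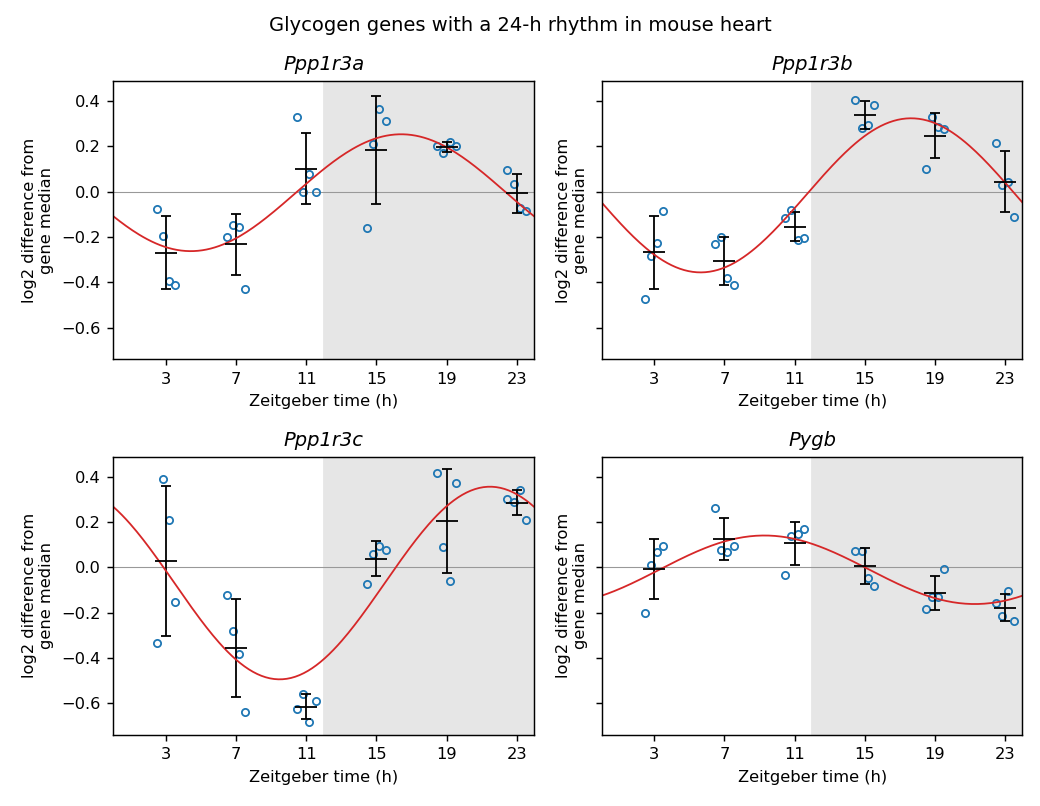
Values of the 4 glycogen genes with a called 24-h rhythm, as log2 difference from the probe set's median (y) against zeitgeber time in hours (x). For Ppp1r3b both probe sets were averaged. Open circles are single arrays, black bars the mean and SD of 4 arrays, the red line the fitted cosine, grey the dark phase. Ppp1r3a and Ppp1r3b are high at ZT15 and ZT19, Ppp1r3c is lowest at ZT11 (mean -0.61) and highest at ZT23 (mean 0.28), and Pygb runs the other way with its lowest mean at ZT23 (-0.18).

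Promoter letters are shown for Ppp1r3a and Ppp1r3c because these subunits peaked furthest apart among the rhythmic subunits, and a stretch of the Ppp1r3d promoter because it holds the same E-box with no called rhythm. They come from RefSeq on GRCm38.p6, through a table of promoters that was matched for 8 of the 9 members, all but Ppp1r3b. Each runs 5′ to 3′. Those of Ppp1r3a and Ppp1r3c end at the base before the gene's start, and the 50 bases of Ppp1r3d end further upstream. Capitals mark a match to CACGTG (the E-box bound by CLOCK and BMAL1), TTATGTAA or TTACGTAA (the D-box), AGGTCA (a nuclear receptor motif), TGTTCT (a glucocorticoid receptor motif) or GCGTG (the core of the hypoxia response motif), all searched on both strands. No 2 matches overlapped in these sequences.
Ppp1r3a, chr6:14755275-14755524, minus strand: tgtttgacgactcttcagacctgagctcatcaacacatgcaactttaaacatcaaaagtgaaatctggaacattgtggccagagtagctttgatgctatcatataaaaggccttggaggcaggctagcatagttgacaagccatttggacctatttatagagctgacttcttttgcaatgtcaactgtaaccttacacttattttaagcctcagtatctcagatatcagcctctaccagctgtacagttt
Ppp1r3c, chr19:36736605-36736854, minus strand: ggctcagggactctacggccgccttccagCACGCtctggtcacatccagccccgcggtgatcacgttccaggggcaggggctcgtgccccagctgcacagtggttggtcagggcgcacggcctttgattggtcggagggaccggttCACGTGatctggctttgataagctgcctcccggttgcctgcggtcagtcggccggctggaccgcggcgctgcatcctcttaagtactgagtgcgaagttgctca
Ppp1r3d, chr2:178414662-178414711, minus strand: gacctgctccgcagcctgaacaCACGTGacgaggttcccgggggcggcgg
The 250 bases of Ppp1r3a held none of these letters. Those of Ppp1r3c held 1 E-box that begins 104 bases before the start and 1 hypoxia core on the other strand that begins 221 bases before it. Ppp1r3d, which had no called rhythm, held an E-box that begins 226 bases before its start, and no other member with a promoter held one in this window. The hypoxia core stood in 5 of the 8 promoters, those of Gyg, Ppp1r3c, Ppp1r3d, Pygb and Pygm. Of 32851 mouse promoters of this length 6.02% held the E-box and 28.2% the hypoxia core. The D-box stood in 0.931% of them, AGGTCA in 14% and TGTTCT in 16.1%. A match is a description of letters, not a bound site, and binding was not measured.

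Ppp1r3a encodes the targeting subunit of striated muscle, which tethers the phosphatase to glycogen and to the sarcoplasmic reticulum. In replicates 1 to 4, ZT03 had log2 values of -0.08, -0.20, -0.40 and -0.41 and ZT07 had -0.20, -0.14, -0.16 and -0.43. At ZT11 they were 0.33, 0.00, 0.08 and -0.00. ZT15 had -0.16, 0.21, 0.37 and 0.31, ZT19 had 0.20, 0.17, 0.22 and 0.20, and ZT23 had 0.10, 0.03, -0.07 and -0.08. All 8 arrays of ZT03 and ZT07 lay below 0, all 4 of ZT19 above it, and ZT15 spread most because its replicate 1 was low. The highest mean, 0.20 ± 0.02 (SD, n = 4) at ZT19, and the lowest, -0.27 ± 0.16 at ZT03, did not overlap. Of the 5 pairs of neighbours in the order of the means, 4 differed by less than the larger of their SDs, and only ZT23 and ZT07 stood further apart. The fit gave an amplitude (peak minus mean, log2) of 0.26 ± 0.040 (SE, 24 arrays) with a peak at ZT 16.4 ± 0.588 h (limma, adjusted p = 0.000367). Without ZT15 replicate 1, an array with the highest SD over all probe sets (0.171), the change was 1.50-fold (adjusted p = 8.26e-06).

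Ppp1r3b encodes the subunit first known from liver, which also occurs in muscle. Averaged over both probe sets, ZT03 had -0.48, -0.29, -0.22 and -0.08, ZT07 had -0.23, -0.20, -0.38 and -0.41, and ZT11 had -0.12, -0.08, -0.21 and -0.20. After lights-off, ZT15 had 0.40, 0.28, 0.29 and 0.38, ZT19 had 0.10, 0.33, 0.29 and 0.27, and ZT23 had 0.22, 0.03, 0.04 and -0.11. All 12 light-phase arrays lay below 0, and all 8 arrays of ZT15 and ZT19 lay above every light-phase array. The mean went from -0.15 ± 0.06 (SD, n = 4) at ZT11 to 0.34 ± 0.06 at ZT15. The amplitude was 0.34 ± 0.033 (SE, 24 arrays), the peak ZT 17.6 ± 0.372 h and the adjusted p 8.50e-07 in limma's test. By p this was rank 39 of 22180 genes.

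The 2 probe sets of Ppp1r3b did not agree in size. Probe set 17500543 had -0.53, -0.26, -0.54 and -0.21 at ZT03, -0.32, -0.37, -0.56 and -0.72 at ZT07, and -0.05, -0.23, -0.45 and -0.31 at ZT11. It then had 0.34, 0.35, 0.44 and 0.68 at ZT15, 0.37, 0.57, 0.56 and 0.56 at ZT19, and 0.42, 0.18, 0.06 and 0.05 at ZT23. Every dark-phase array of this probe set was above every light-phase array. Its fitted change was 2.18-fold with a peak at ZT 18.2 ± 0.299 h (limma over 23521 probe sets, adjusted p = 2.29e-08).
Probe set 17500548 had means of -0.15 ± 0.25 (SD, n = 4) at ZT03, -0.12 ± 0.07 at ZT07 and -0.05 ± 0.11 at ZT11. It had 0.23 ± 0.17 at ZT15, -0.02 ± 0.11 at ZT19 and -0.09 ± 0.14 at ZT23, so ZT15 had the highest mean, although its lowest array lay below the highest of ZT03. Its change was 1.23-fold and was not called (adjusted p = 0.0811). The within-array difference of the probe sets had a 24-h amplitude of 0.46, larger than nearly all reassignments of the 24 arrays to times gave (permutation test, 100000 resamples, p = 2.00e-05). The pair correlated at r = 0.44 over the 24 arrays, as a description. Which part of the transcript each probe set covers is not given in the sources used here. Every statement on Ppp1r3b as a gene therefore averages a large rhythm and a small uncalled one.

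**Figure D2:**
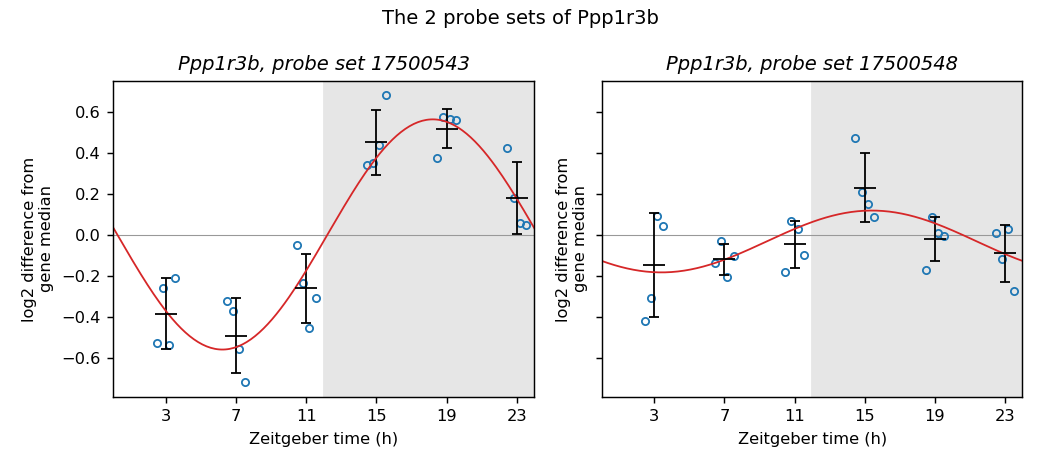
The 2 probe sets of Ppp1r3b, as log2 difference from the probe set's median (y) against zeitgeber time in hours (x); open circles are single arrays, bars the mean and SD of 4 arrays, red the fitted cosine, grey the dark phase. Probe set 17500543 rises at ZT15 and stays high at ZT19 (mean 0.52), whereas 17500548 has its highest mean, 0.23, at ZT15.

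Ppp1r3c encodes the subunit also called protein targeting to glycogen, which binds both synthase and phosphorylase. ZT03 had -0.33, 0.39, 0.21 and -0.15, ZT07 had -0.12, -0.28, -0.38 and -0.64, and ZT11 had -0.63, -0.56, -0.68 and -0.59. In the dark, ZT15 had -0.07, 0.06, 0.09 and 0.08, ZT19 had 0.42, 0.09, -0.06 and 0.37, and ZT23 had 0.30, 0.29, 0.34 and 0.21. Except for ZT07 replicate 4, every other array lay above all 4 of ZT11, and ZT03 was the most variable time (mean 0.03 ± 0.33, SD, n = 4). The mean was lowest at ZT11 (-0.61 ± 0.05) and highest at ZT23 (0.28 ± 0.06), a difference of 0.90 ± 0.127 (SE) or 1.87-fold (limma, adjusted p = 0.000160). The amplitude was 0.43 ± 0.056 (SE, 24 arrays) and the peak ZT 21.5 ± 0.505 h (adjusted p = 6.28e-05). This was rank 64 of 22180 genes by amplitude.

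Pygb encodes the phosphorylase named for brain, an isoform that heart also makes. By day, ZT03 had -0.20, 0.01, 0.07 and 0.10, ZT07 had 0.26, 0.08, 0.07 and 0.10, and ZT11 had -0.03, 0.14, 0.15 and 0.17. By night, ZT15 had 0.07, 0.07, -0.05 and -0.08, ZT19 had -0.18, -0.13, -0.13 and -0.01, and ZT23 had -0.16, -0.21, -0.10 and -0.24. All arrays of ZT19 and ZT23 lay below 0 and all of ZT07 above it, and the groups of ZT07 (mean 0.13 ± 0.09, SD, n = 4) and ZT23 (-0.18 ± 0.06) did not overlap. The amplitude was 0.15 ± 0.025 (SE, 24 arrays) and the peak ZT 9.28 ± 0.629 h (limma, adjusted p = 0.000814). The fitted peak of Ppp1r3c lay 11.8 h from it, that of Ppp1r3b 8.36 h and that of Ppp1r3a 7.13 h.

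Night against day set the mean of ZT15, ZT19 and ZT23 against that of ZT03, ZT07 and ZT11, and 3 subunits were higher and Pygb was lower at night. In this test 4.39% of all genes were called, 1.89% higher and 2.49% lower. Ppp1r3c was higher by 0.49 ± 0.073 (log2, SE, 12 arrays against 12; limma, adjusted p = 0.000269), or 1.40-fold. Ppp1r3b was 1.37-fold higher (0.45 ± 0.043, adjusted p = 2.31e-06), by 0.76 ± 0.062 in probe set 17500543 (adjusted p = 1.63e-07) and 0.14 ± 0.059 in 17500548 (adjusted p = 0.207). Ppp1r3a was 1.20-fold higher (0.26 ± 0.057, adjusted p = 0.00970). Pygb fell by 0.17 ± 0.037 (adjusted p = 0.00783). A test of any difference among the 6 times called the same 4 genes (limma's F test, 4.72% of all genes called). The adjusted p was 1.13e-05 for Ppp1r3b, 0.000318 for Ppp1r3c, 0.00739 for Ppp1r3a and 0.0179 for Pygb, and it was 0.176 for probe set 17500548. The Pygb call in that F test was lost without the 3 arrays of highest SD (adjusted p = 0.0680), namely ZT15 replicate 1, ZT23 replicate 4 and ZT07 replicate 4.

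The 3 rhythmic subunits differed in sign between dusk and dawn. Dusk against dawn set ZT11 and ZT15 against ZT23 and ZT03, where 3.76% of all genes were called, 2.06% higher and 1.7% lower. Ppp1r3c was lower at dusk by a log2 difference of -0.44 ± 0.089 (SE; limma, adjusted p = 0.00402), while Ppp1r3a was higher by 0.28 ± 0.070 (adjusted p = 0.0232) and Ppp1r3b by 0.20 ± 0.053 (adjusted p = 0.0298). The Ppp1r3a call was lost without any one of ZT03 replicate 3 or 4, ZT11 replicate 1, ZT15 replicate 3 or ZT23 replicate 3 (adjusted p up to 0.0550, log2 difference 0.24 to 0.34 over all single omissions). The Ppp1r3b call was lost without any one of 9 arrays (ZT03 replicates 1 and 2, ZT11 replicates 1 and 2, ZT15 replicates 1 and 4, and ZT23 replicates 2, 3 and 4), and with the replicate number as a block (adjusted p = 0.0524). It was also absent without the 3 arrays of highest SD (adjusted p = 0.115), with array weights (adjusted p = 0.0551) and in each of its probe sets (adjusted p = 0.198 for 17500543 and 0.137 for 17500548). The Ppp1r3c call was kept in all 33 alternatives (adjusted p up to 0.0112).
To set the timing of the subunits side by side, the difference of each pair of subunits was taken on each array and compared between ZT15 and ZT23, 4 arrays each. Ppp1r3c minus Ppp1r3a had a mean of -0.14 ± 0.16 (SD, n = 4) at ZT15 and 0.29 ± 0.09 at ZT23, a shift of 0.44 ± 0.092 (SE) with no overlap of the arrays. Ppp1r3c minus Ppp1r3b went from -0.30 ± 0.13 to 0.24 ± 0.11, a shift of 0.54 ± 0.083, again with no overlap. Both had p = 0.0286 in a two-sided exact permutation test, the smallest this design can give, and an adjusted p of 0.0429 over the 3 pairs. Ppp1r3b minus Ppp1r3a shifted by -0.11 ± 0.145 (exact permutation p = 0.686, adjusted p = 0.686), and without ZT15 replicate 1 by 0.03. Without any 1 array of ZT23 the adjusted p was 0.0857 for both pairs with Ppp1r3c. A difference between Ppp1r3a and Ppp1r3b was not detectable with 4 arrays a time. Both the pairs and the times were picked with the peak times on these arrays known, so these p-values are no independent support for the order of the peaks.

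**Figure D3:**
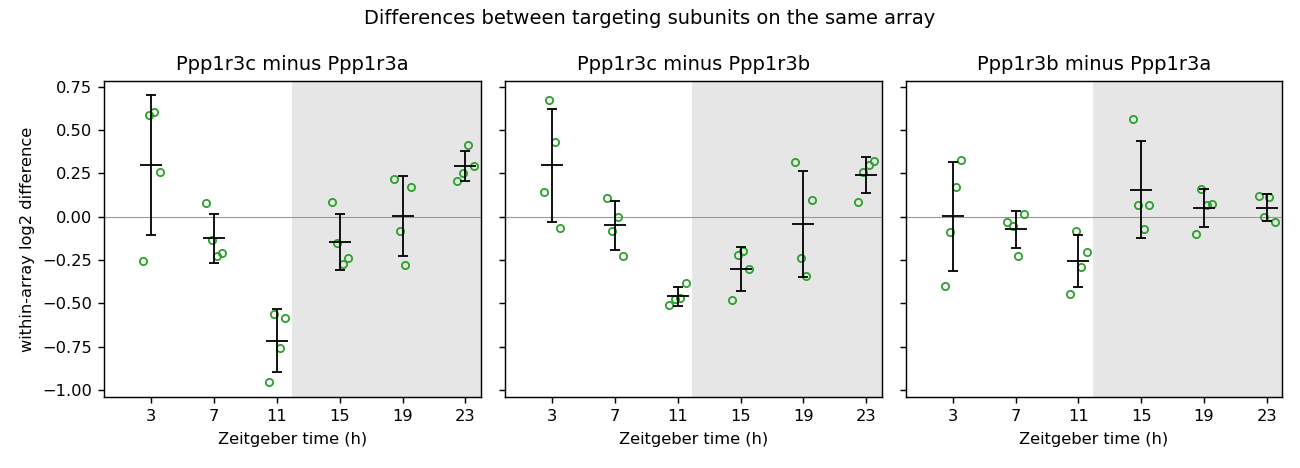
Within-array log2 differences between targeting subunits (y) against zeitgeber time in hours (x); open circles are single arrays, bars the mean and SD of 4 arrays, grey the dark phase. Ppp1r3c minus Ppp1r3a and Ppp1r3c minus Ppp1r3b are below their ZT23 values on all 4 arrays of ZT15, and the points of Ppp1r3b minus Ppp1r3a overlap between these times.

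Steps between neighbouring times placed the change of Ppp1r3b and Ppp1r3c at lights-off. From ZT11 to ZT15 Ppp1r3b rose by 0.49 ± 0.075 (log2, SE; limma, adjusted p = 0.00450) and Ppp1r3c by 0.65 ± 0.127 (adjusted p = 0.0261), against 0.203% of all genes called at this step and 0.113% called higher. The Ppp1r3c call was lost without any one of ZT11 replicates 2, 3 and 4 or ZT15 replicates 2, 3 and 4 (adjusted p up to 0.104) and with the replicate block (adjusted p = 0.0501), and that of Ppp1r3b was absent in probe set 17500548 (adjusted p = 0.444). Ppp1r3a differed by 0.08 ± 0.099 at this step (adjusted p = 0.927) and by 0.33 ± 0.099 from ZT07 to ZT11 (unadjusted p = 0.00284, adjusted p = 0.260). No other step was called for any member as a gene in limma's test. At an unadjusted p below 0.05 there were 2 members from ZT03 to ZT07, 1 from ZT07 to ZT11, 1 from ZT15 to ZT19, 3 from ZT19 to ZT23 and 4 from ZT23 to ZT03. Of all genes, 6.24%, 7.14%, 9.21%, 8.65% and 11.7% had such a p at these 5 steps, and 0.203%, 0.311%, 0.203%, 0.0676% and 0.685% were called. The closest was Ppp1r3b across lights-on, with a log2 difference of -0.31 ± 0.075 from ZT23 to ZT03 (adjusted p = 0.0586). It passed in 6 of 33 alternatives. Among these were probe set 17500543 (adjusted p = 0.0126), quantile normalization (adjusted p = 0.0405) and the fit without the 3 arrays of highest SD (adjusted p = 0.0432). Probe set 17500548 differed by -0.06 at this step (adjusted p = 0.890).

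Times 12 h apart gave 7 calls among the members. Between ZT03 and ZT15, where 3.06% of all genes were called and 1.36% were higher, Ppp1r3a differed by 0.45 ± 0.099 (log2, SE; limma, adjusted p = 0.0111) and Ppp1r3b by 0.61 ± 0.075 (adjusted p = 3.37e-05), both higher at ZT15. Ppp1r3c differed by 0.01 ± 0.127 (95% interval -0.25 to 0.27, adjusted p = 0.991). The Ppp1r3a call was lost without ZT15 replicate 3 (adjusted p = 0.0503). Between ZT07 and ZT19, with 1.59% of all genes called and 0.888% higher, Ppp1r3a (0.43 ± 0.099, adjusted p = 0.0282), Ppp1r3b (0.55 ± 0.075, adjusted p = 0.000484) and Ppp1r3c (0.56 ± 0.127, adjusted p = 0.0245) were all higher at ZT19. The Ppp1r3a call was lost without any one of ZT07 replicates 1 and 4 or the 4 arrays of ZT19 (adjusted p up to 0.115). The Ppp1r3c call was lost without any one of ZT07 replicates 3 and 4 or ZT19 replicates 1 and 4 (adjusted p up to 0.105), and without the 3 arrays of highest SD (adjusted p = 0.0995). Probe set 17500548 of Ppp1r3b was not called there (adjusted p = 0.769). Pygb had a log2 difference of -0.24 ± 0.064 from ZT07 to ZT19 (adjusted p = 0.0599), which was called without ZT03 replicate 1 or ZT11 replicate 1, with array weights and with quantile normalization (adjusted p = 0.0284 to 0.0459). Between ZT11 and ZT23, with 2.72% of all genes called, 0.965% higher and 1.76% lower, Ppp1r3c was higher at ZT23 and Pygb fell by 0.28 ± 0.064 (adjusted p = 0.0148). Ppp1r3b as a gene was not called there (0.20 ± 0.075, adjusted p = 0.213), but its probe set 17500543 was (0.44 ± 0.107, adjusted p = 0.0276), and 17500548 was at -0.04 (adjusted p = 0.913). The Pygb call between ZT11 and ZT23 was lost without ZT11 replicate 3, ZT11 replicate 4 or ZT23 replicate 4, and without the 3 arrays of highest SD (adjusted p up to 0.0626).

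Members without a called rhythm had fitted changes of at most 1.11-fold. Ppp1r3d, a broadly expressed targeting subunit, had -0.08, -0.12, -0.08 and 0.05 at ZT03, 0.03, 0.10, 0.10 and -0.16 at ZT07, and -0.05, -0.02, -0.17 and 0.01 at ZT11. It had -0.12, -0.12, -0.01 and 0.07 at ZT15, 0.30, 0.09, 0.12 and 0.18 at ZT19, and 0.15, -0.03, 0.04 and -0.04 at ZT23. ZT19 was its highest time (mean 0.17 ± 0.09, SD, n = 4) and did not overlap with ZT03, the lowest (-0.06 ± 0.07). Neither the rhythm (1.11-fold, limma, adjusted p = 0.321) nor the difference among times (adjusted p = 0.143) was called. Its night minus day difference was 0.09, with a 95% interval of 0.01 to 0.16 that lay above 0, and was not called (limma, adjusted p = 0.223). From ZT15 to ZT19 it rose by 0.22 ± 0.064 (SE; limma, unadjusted p = 0.00292, adjusted p = 0.244).
Gys1, the glycogen synthase of muscle, had its highest mean at ZT03 (0.05 ± 0.04) and its lowest at ZT23 (-0.10 ± 0.10), and its night minus day difference was -0.04 (95% interval -0.10 to 0.03, limma adjusted p = 0.663). Pygm, the phosphorylase of muscle, stayed between -0.09 and 0.10 on all 24 arrays, with a night minus day difference of 0.00 (95% interval -0.04 to 0.04). Gyg, which encodes glycogenin, ranged from -0.28 to 0.18 with a difference of 0.03 (95% interval -0.05 to 0.12). Gbe1, the branching enzyme, ranged from -0.32 to 0.10 with a difference of 0.06 (95% interval -0.04 to 0.16). These intervals leave out the night minus day difference of 0.45 of the averaged Ppp1r3b. The 0.14 of its probe set 17500548 lies within the interval of Gbe1 and within that of Ppp1r3d. For Gys1, Gyg, Pygm and Gbe1 all 5 neighbouring pairs in the order of the time means differed by less than the larger SD. The highest and lowest times did not overlap in 7 of the 9 members, 3 of them uncalled, against 27.6% of all genes.

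**Figure D4:**
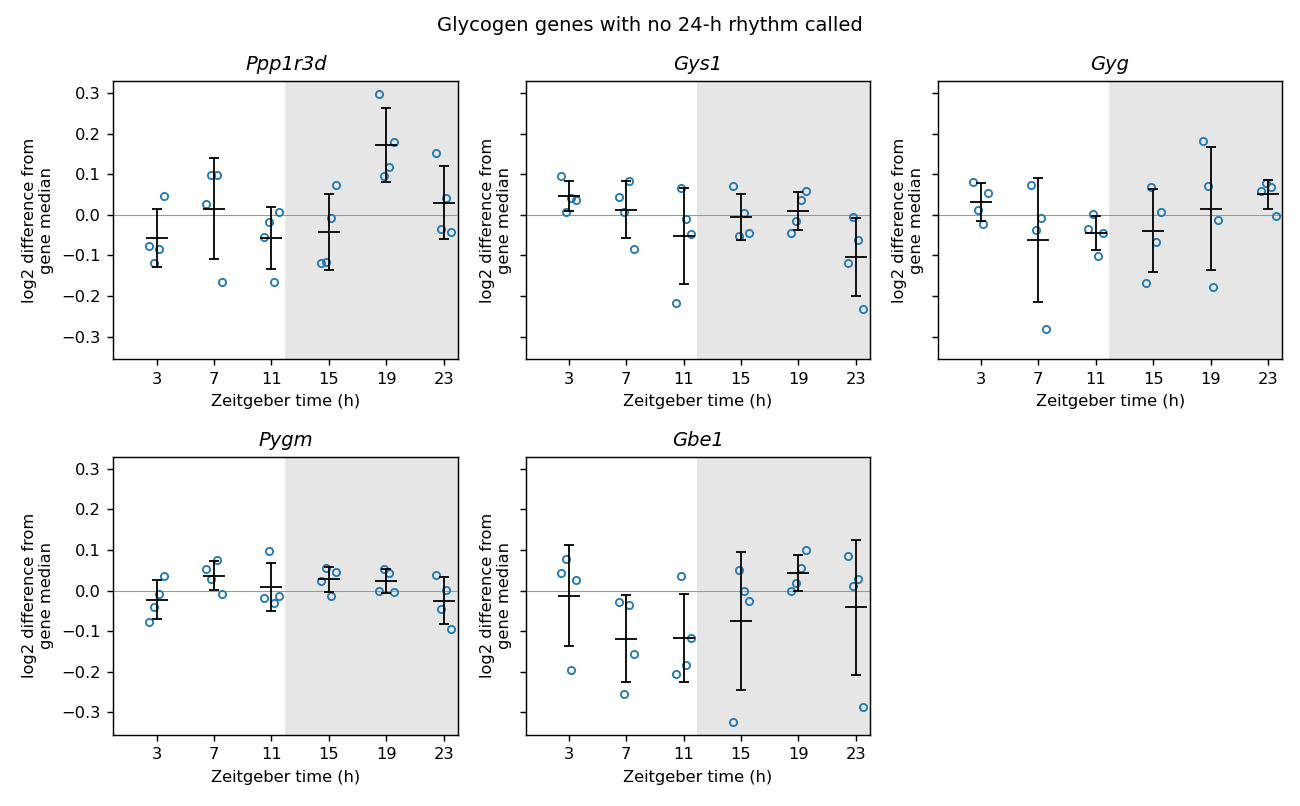
The 5 members without a called rhythm, as log2 difference from the gene's median (y) against zeitgeber time in hours (x); open circles are single arrays and bars the mean and SD of 4 arrays, with the dark phase in grey. The y axis is narrower than in the plot of the rhythmic members; Pygm stays within -0.09 and 0.10, and Ppp1r3d is highest at ZT19 (mean 0.17).

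The rest of the glycogen pathway was read from 8 lists chosen with earlier results of these data known, of which 39 of 43 genes were measured. Of these, 10 had a rhythm, 8 with a fitted peak in the light and 2 in the dark, against 7.61% of all genes. Night against day called 6 of the 39, all lower at night, against 4.39% of all genes called and 2.49% lower. None of the other targeting subunits Ppp1r3e, Ppp1r3f and Ppp1r3g was called (0 of 3 in limma's test, none at an unadjusted p below 0.05, which 19.5% of all genes had). Ppp1r3f (1.05-fold, adjusted p = 0.626) and Ppp1r3g (1.06-fold, adjusted p = 0.692) were closest. Over all 7 targeting subunits 3 were therefore called. None of the 3 catalytic subunits of the phosphatase was called, with Ppp1ca (1.11-fold, adjusted p = 0.193, unadjusted p = 0.0309) and Ppp1cb (1.10-fold, adjusted p = 0.382) closest. The 6 other enzymes of glycogen and its sugar nucleotides had 0 calls. Gys2, the liver synthase (1.06-fold, unadjusted p = 0.0388, adjusted p = 0.222), and Ugp2, which makes UDP-glucose (1.22-fold, adjusted p = 0.273), were closest.

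Among proteins bound to glycogen, 1 of 3 was called. Stbd1, which tethers glycogen to membranes, changed 1.31-fold with a peak at ZT 14.4 ± 0.718 h (amplitude 0.19 ± 0.037, SE, 24 arrays; limma, adjusted p = 0.00328). Its mean went from -0.21 ± 0.14 (SD, n = 4) at ZT03 to 0.25 ± 0.16 at ZT11, its highest and still in the light. At ZT15 it was 0.18 ± 0.15. Epm2a, the laforin phosphatase (1.09-fold, adjusted p = 0.305), and Nhlrc1, the malin ubiquitin ligase (1.09-fold, adjusted p = 0.702), were not called.
Phosphorylase kinase, the enzyme that switches phosphorylase on, had 2 of 5 subunits called, both with a peak in the light. Phka2, a regulatory subunit, changed 1.39-fold with a peak at ZT 6.98 ± 0.648 h (adjusted p = 0.00114) and was lower at night by a log2 difference of -0.35 ± 0.058 (adjusted p = 0.000846). Phkg2, a catalytic subunit, changed 1.23-fold with a peak at ZT 11.2 ± 0.720 h (adjusted p = 0.00338). Phkg1 (1.15-fold, adjusted p = 0.226) and Phka1 (1.12-fold, adjusted p = 0.274), the subunits known from muscle, were not called.

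Of 8 measured kinase genes that act on glycogen synthase, 2 were called, both subunits of AMP-activated kinase. They were Prkag1 (1.12-fold, ZT 7.55; limma, adjusted p = 0.0316) and Prkaa2 (1.25-fold, ZT 23.6 ± 0.999 h, adjusted p = 0.0454). The mean of Prkaa2 was 0.10 both at ZT23 in the dark and at ZT03 in the light. The Prkaa2 call was lost without any one of 16 arrays, with an adjusted p of at most 0.0913. The Prkag1 call was lost without ZT07 replicate 1 or 3, ZT19 replicate 2 or 3, or ZT23 replicate 2 (adjusted p up to 0.0782), and both were lost with the replicate block. Prkag2 (1.18-fold, adjusted p = 0.113) and Csnk2a1 (1.13-fold, adjusted p = 0.247) followed. Upstream, 2 of 7 were called. Prkar1a, a regulatory subunit of protein kinase A, changed 1.40-fold with a peak at ZT 3.83 ± 0.470 h (adjusted p = 2.43e-05), and Insr, the insulin receptor, 1.23-fold with a peak at ZT 5.64 ± 0.595 h (adjusted p = 0.000421). Both were lower at night, Prkar1a by a log2 difference of -0.24 ± 0.041 (adjusted p = 0.00114) and Insr by -0.21 ± 0.029 (adjusted p = 0.000107). Akt1 (1.11-fold, adjusted p = 0.255) and Akt2 (1.09-fold, adjusted p = 0.340) were not called. Of 4 genes of glucose entry 3 were called, namely the hexokinase Hk2 (1.13-fold, ZT 8.08, adjusted p = 0.0145) and the transporters Slc2a1 (1.15-fold, ZT 10.2, adjusted p = 0.0181) and Slc2a4 (1.19-fold, ZT 10.5, adjusted p = 0.0464), with Hk1 outside (adjusted p = 0.0544). Neither of the 2 probe sets of Slc2a1 was called alone (adjusted p = 0.134 and 0.535). The Slc2a4 call was lost without any one of 16 arrays (adjusted p at most 0.116), without the 3 arrays of highest SD and with the replicate block.

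**Figure D5:**
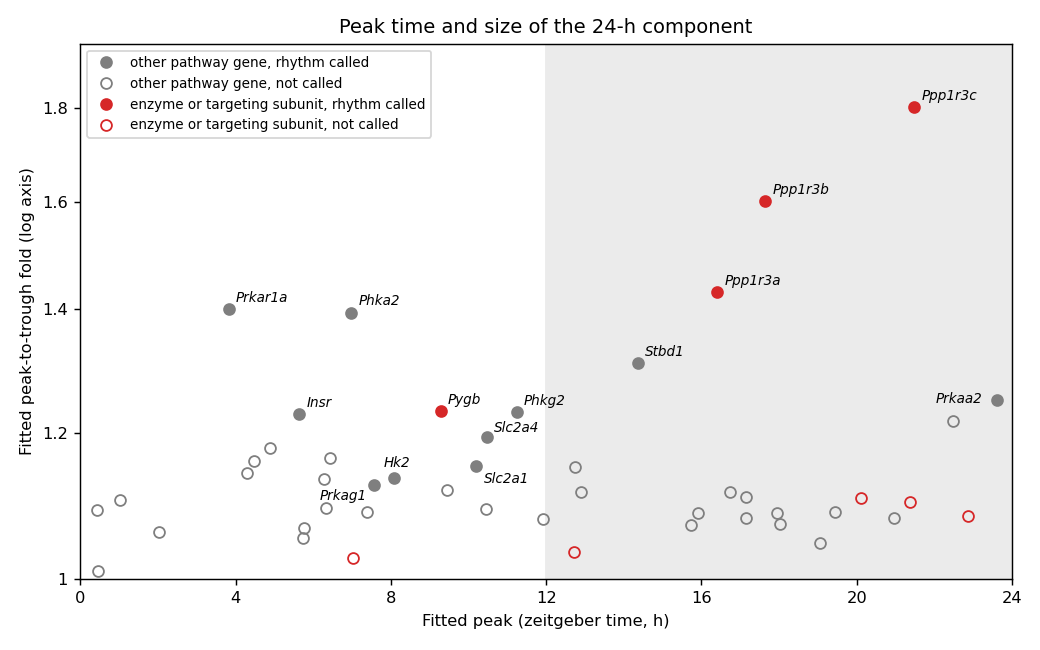
Fitted peak time in zeitgeber hours (x) against the fitted peak-to-trough fold (y, log axis) for the 9 members (red) and 39 other genes of the pathway (grey); filled points have a called 24-h rhythm, open points do not, and grey shading is the dark phase. The 3 called targeting subunits lie in the dark phase between 1.43 and 1.80-fold, and Pygb and 8 of the 10 called pathway genes lie in the light phase. Open points did not pass the test of a rhythm.

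Among 19394 other named genes, those whose values ran most like each rhythmic member over the 24 arrays were found by Pearson correlation, given as a description of arrays that share their time, tissue and array effects. They were Smarca2 (r = 0.89), P2ry1 (r = 0.87) and Dtna (r = 0.86) for Ppp1r3a. For Ppp1r3b they were Mavs (r = 0.86), Naa60 (r = 0.85) and Lyve1 (r = 0.85). For Ppp1r3c they were Atxn2 (r = 0.88), Steap4 (r = 0.87) and Srf (r = 0.85), and for Pygb Mylk3 (r = 0.90), Dync1h1 (r = 0.89) and Mybpc3 (r = 0.88). Among the members, Ppp1r3a correlated with Ppp1r3b at r = 0.63 and with Ppp1r3c at r = 0.15, and Ppp1r3b with Ppp1r3c at r = 0.50. Pygb ran against Ppp1r3c (r = -0.55). Mylk3 and Mybpc3 act in the sarcomere, and Lyve1 is in the list of macrophage markers read below.

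Markers of macrophages and platelets ran higher at night, as the 3 subunits did, while other lists had few calls or none. In limma's tests 7.61% of all genes had a rhythm and 4.39% differed between night and day. Of 6 macrophage markers 4 had a rhythm and 4 differed between night and day, and the mean of the list ran from -0.41 to 0.04 on day arrays and from -0.01 to 0.35 on night arrays. Of 4 platelet markers 3 had a rhythm, with the list between -0.36 and -0.03 by day and between 0.03 and 1.32 at night, the last on ZT15 replicate 1. Fibroblast markers had 2 of 5 called for a rhythm, endothelial 1 of 5, ventricular cardiomyocyte 1 of 8 and adipocyte 1 of 4. Night against day called 2 of the 5 fibroblast markers (list median 0.04) and 1 of the 8 ventricular cardiomyocyte markers (list median -0.04). It called 0 endothelial and 0 adipocyte markers. Atrial (5), skeletal muscle (8), liver (5), smooth muscle and pericyte (5) and brain and Schwann (3) markers had 0 calls in limma's test. The atrial list was uneven between arrays, from -0.25 to 0.39 by day and from -0.18 to 0.78 at night, with its highest mean at ZT19. Its median night minus day difference was 0.17, against 0.19 for macrophage and 0.42 for platelet markers. The part of these cells in the subunits' rhythms was not tested, and in whole tissue fewer cells of a type and less RNA per cell cannot be told apart. Without the 3 arrays of highest SD the night minus day differences were 0.28 for Ppp1r3a, 0.45 for Ppp1r3b, 0.48 for Ppp1r3c and -0.17 for Pygb, all still called. These arrays were picked by SD and not by markers, and ZT07 replicate 4 among them had a platelet mean of -0.18. Arrays with high platelet means stayed in, namely ZT19 replicates 1 (1.02) and 2 (0.73) and ZT23 replicates 1 (0.74) and 3 (0.64). Time labels were checked on clock genes. Arntl (7.13-fold, ZT 0.329, adjusted p = 2.47e-12), Nr1d1 (5.52-fold, ZT 7.56) and Dbp (5.08-fold, ZT 11.4) each had a rhythm, and Arntl was at 1.42 ± 0.12 (SD, n = 4) at ZT03 and -1.13 ± 0.16 at ZT11. Array SDs over all probe sets ran from 0.103 to 0.171.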

How the data were processed

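Total RNA of 24 hearts, extracted with TRIzol, was labelled as cRNA from 500 ng and hybridised to Affymetrix arrays, 1 per sample, per the labels. The deposited table of the authors holds log2 values, with base 2 assumed, centred so that each probe set's median over the arrays is 0 within 5e-07. How probe sets were summarised and arrays normalized was not given in the sources used here. Higher values were read as more RNA, which is not stated. Depth does not apply, and the number of arrays limits the precision.

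Of 34351 probe sets, 23521 named 1 gene, 1814 several and 9016 none. Values were averaged per gene (22180 genes), and no dim genes could be filtered out. All groups came from the time in the labels. Tests were limma 3.58.1 fits in R 4.3.3 over all genes and 24 arrays (lmFit, eBayes; 18 residual degrees of freedom for time means) with Benjamini-Hochberg adjustment, and a call is an adjusted p below 0.05. Amplitudes and peak times come from a cosine of 24 h, with SEs by the delta method. Exact permutation tests were used for pairs of subunits. Scripts were tested on simulated data.

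The members, lists and pairs were chosen with earlier results of these data known. Every member was named, with each list gene called for a rhythm, the 2 next by p per list, and the 3 genes most correlated with each rhythmic member, leaving out predicted genes. Alternatives left out arrays, weighted arrays, used the replicate number as a block, rescaled arrays, used robust moderation, coding genes only, or single probe sets.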

Additional observations from a re-analysis of the deposited data

Results flagged for a closer look

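In 66 sets of 4 arrays (9 genes and 2 probe sets at 6 times), 4 held 1 array far from the other 3, and chance alone gives about 1 in 20 such sets. Pygm at ZT11 had 0.0975 in replicate 2 against -0.03 to -0.01 in the others. Pygb had 0.264 in ZT07 replicate 1 against 0.07 to 0.10, and -0.033 in ZT11 replicate 1 against 0.14 to 0.17. Without that ZT11 array the Pygb difference of dusk against dawn was called (log2 difference 0.17, limma, adjusted p = 0.0321). Ppp1r3b probe set 17500543 had 0.372 in ZT19 replicate 1 against 0.56 to 0.57.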

How the results depend on the processing

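The 4 rhythm calls (Ppp1r3a, Ppp1r3b, Ppp1r3c and Pygb) were kept in limma's test in all 33 alternatives, except that Ppp1r3b was not called in its probe set 17500548 (1.23-fold, adjusted p = 0.0811). The fold ranged over single omissions of an array from 1.40 to 1.50 for Ppp1r3a, 1.57 to 1.64 for Ppp1r3b, 1.76 to 1.87 for Ppp1r3c and 1.21 to 1.26 for Pygb. Calls of a member at a step between neighbouring times numbered 2. There was 1 with the replicate block, 1 with Ppp1r3b taken from its probe set of larger p, and 1 to 3 over single omissions. The only such call gained in any alternative was Ppp1r3b from ZT23 to ZT03, a member already called at another step. The members called for dusk against dawn numbered 3, and 1 to 3 over single omissions, the 1 being without ZT23 replicate 3. The shift of Ppp1r3c minus Ppp1r3a from ZT15 to ZT23 was 0.39 to 0.51 over single omissions, and that of Ppp1r3c minus Ppp1r3b 0.48 to 0.59. Without any 1 array of ZT23 the exact permutation test gave p = 0.0571 for the first pair and 0.0286 for the second, and the adjusted p over the 3 pairs was 0.0857 for both. Over the single genes and tests, 34 results were called, and 89 of their 1102 recomputed values were not. Another 93 results were not called, and 12 of their 3069 recomputed values were. None of these values (0 of either) changed direction while called. The replicate numbers gave no sign of pairing, which the labels do not settle. After removal of time means, same-numbered arrays correlated between -0.23 and 0.23 (median -0.01, against 0.005 for arrays of different number). Of 24 arrays, 8 correlated best with their own number. The replicate block gave 1576 rhythmic genes in place of 1688. A filter on dim genes was not run because centred values keep no level, and this also leaves signal over background unknown.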
